A study of Homo sapiens with 18 samples.

Results

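Of the genes whose transcripts were edited by YTHDF2-ADAR, 137 were listed for that construct alone. They were chosen by the authors' deposited editing tables, one for each construct: a gene symbol had an entry in the YTHDF2-ADAR table and none in the YTHDF1-ADAR or YTHDF3-ADAR table. The 137 genes were 3.01% of the 4547 genes in the YTHDF2-ADAR table and 1.57% of the 8714 genes in any of the 3 tables. Because listing chose them, their editing values are given as a description, with no test.

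The RNA came from HEK293T cells, an established human embryonic kidney line. The groups were YTHDF2-ADAR, YTHDF1-ADAR and YTHDF3-ADAR, each sampled as polysome RNA and as total RNA, which makes 6 groups of 3 libraries. All cells, whichever construct they carried, received 1 µg/mL doxycycline for 24 h to induce the fusion and 100 µg/mL cycloheximide for 10 min to hold ribosomes on mRNA. Polysome RNA was the RNA of pooled sucrose-gradient fractions with more than a pair of ribosomes per mRNA. No group without a fusion or with unfused ADAR was analysed here. Whether a line is a clone or a pool of cells, and whether the 3 libraries of a group are separate cultures, is not given in the labels, so the p-values measure the spread between these libraries, which may be technical.

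YTHDF1, YTHDF2 and YTHDF3 are cytoplasmic readers of N6-methyladenosine (m6A), a modification that is frequent near stop codons and in 3′ untranslated regions of mRNA. YTHDF2 is best known for recruiting the CCR4-NOT deadenylase complex to methylated mRNA, which speeds its decay, whereas YTHDF1 and YTHDF3 have also been tied to translation, and the 3 proteins bind largely overlapping sets of sites. In the method used here, called TRIBE or HyperTRIBE, the reader is fused to the catalytic part of an ADAR deaminase, which turns adenosine near the bound site into inosine. Inosine is read as G in sequencing, so the share of G at a site records contact between the fusion and the transcript.

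Listing for 1 construct alone was least frequent for YTHDF2-ADAR. The same rule found 1353 genes for YTHDF1-ADAR alone, 19.7% of its table of 6858 genes, and 1308 genes for YTHDF3-ADAR alone, 18.6% of its table of 7042 genes. Most genes edited by YTHDF2-ADAR were listed for all 3 constructs, namely 3817 genes or 83.9% of its table. Just outside the rule were 593 genes listed for YTHDF2-ADAR and a single other construct, 182 of them with YTHDF1-ADAR and 411 with YTHDF3-ADAR.

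**Figure D1:**
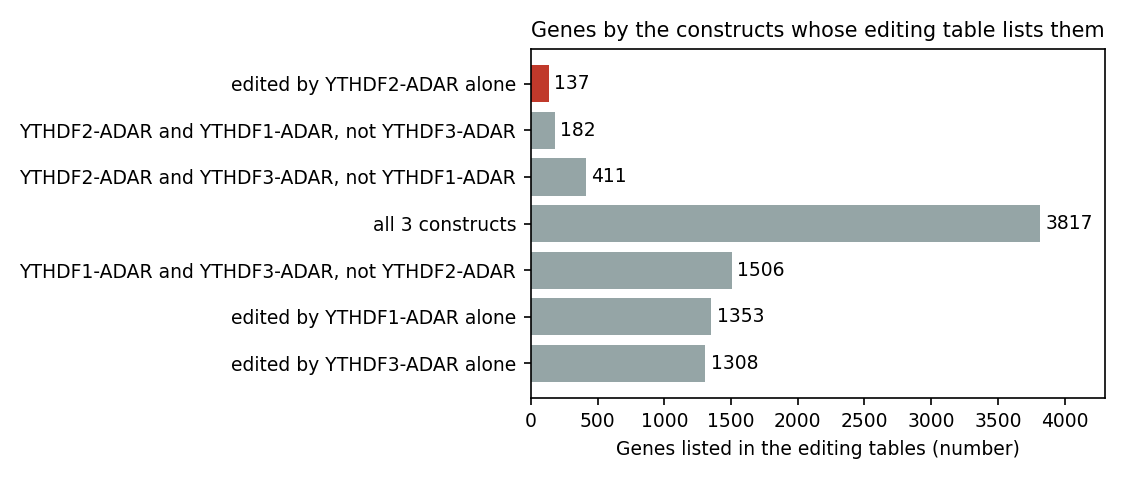
Number of genes (horizontal axis) by the combination of constructs whose editing table lists them (vertical axis), with the 137 genes of YTHDF2-ADAR alone in red and the other combinations in grey. The red bar is the shortest, and the bar of genes listed for all 3 constructs, 3817, is the longest.

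RNA of some of the genes in the labels differed between the lines. YTHDF2 had 276, 288 and 260.3 CPM (read counts relative to the TMM-scaled library total) in the total RNA libraries of YTHDF2-ADAR cells, against 156, 136 and 149.6 CPM in YTHDF1-ADAR cells and 147, 122 and 117 CPM in YTHDF3-ADAR cells. ADARB1, which encodes the deaminase ADAR2, had 40.5, 38.7 and 37.5 CPM in YTHDF2-ADAR cells, against 268, 237 and 238 CPM in YTHDF1-ADAR cells and 1080.1, 1639 and 1651 CPM in YTHDF3-ADAR cells. ADAR itself had log2 fold changes of 0.12 over YTHDF1-ADAR and -0.07 over YTHDF3-ADAR, neither called (edgeR adjusted p = 0.889 and 0.623). YTHDF1 was lower in YTHDF2-ADAR than in YTHDF1-ADAR cells, with a log2 fold change of -2.24, and YTHDF3 lower than in YTHDF3-ADAR cells, with -0.58. The YTHDF2-ADAR line was lowest for ADARB1 in every library, with log2 fold changes of -2.67 over YTHDF1-ADAR and -5.23 over YTHDF3-ADAR. Endogenous transcripts and those of a fusion cannot be told apart in gene counts, the labels do not say which ADAR was fused, and the part of ADARB1 in the number of listed genes was not tested. Depth ran from 42.7e6 to 67.5e6 counts per library. The HEK293T markers VIM, LIN28B, NEFM, NEFL, KRT8, KRT18 and PAX2 were detected in all 18 libraries, whereas the leukocyte, hepatocyte and endothelial markers PTPRC, CD3E, ALB and PECAM1 were at or near 0. The fibroblast marker COL1A1 was also chosen for other cell types, and its level is not given here. Replicate 1 stood apart from the other replicates in total RNA of each line and in polysome RNA of YTHDF3-ADAR cells. The chi-square per degree of freedom between replicates was 57.4 and 76.2 for it and 6.955 for the other pair in YTHDF2-ADAR total RNA, 167 and 217 against 28.3 in YTHDF1-ADAR total RNA, 137 and 143 against 16.9 in YTHDF3-ADAR total RNA, and 127 and 131 against 41.02 in YTHDF3-ADAR polysome RNA. The main counts of calls are therefore also given without both YTHDF3-ADAR libraries and without all 4, an alternative chosen after the data were seen.

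Members carried few edited sites. A single site was listed for 114 of the 137 genes (83.2%), 2 sites for 18 and 3 or more for 5, which made 166 sites in all. Of all genes of YTHDF2-ADAR, 32.2% had a single site and the median was 3 sites, and among genes listed for all 3 constructs 24.9% had a single site. The share among the 593 genes listed for YTHDF2-ADAR and a single other construct, 66.9%, lay between these and the members. The number of sites comes from the same tables as the rule, and no difference in it was tested.

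Editing per site was the deposited score divided by the number of sites, in percent, with 1 value per gene and RNA fraction over the replicates. Depth behind it is unknown, and no interval is given. Its median over the members was 1.04% in polysome RNA (quartiles 0.448% and 1.86%) and 1.15% in total RNA (quartiles 0.586% and 2.47%). Genes listed for all 3 constructs had medians of 1.18% in polysome RNA and 1.22% in total RNA in the same YTHDF2-ADAR cells. Members thus lay near the other YTHDF2-ADAR genes in editing per site, while differing in how many sites were listed. Genes of YTHDF1-ADAR alone, in their own table, had medians of 3.13% in polysome RNA and 2.61% in total RNA, and genes of YTHDF3-ADAR alone had 1.19% and 1.49% in theirs.

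The strongest editing was found in a small group, given here by the rule of the highest summed polysome score. XRCC5 (ENSG00000079246, GRCh38 chr2:216107464-216206303, plus strand) encodes Ku80, which binds DNA ends in non-homologous end joining. It had 3 sites with 19.4% editing per site in polysome RNA and 27.1% in total RNA. C1orf43 (ENSG00000143612, chr1:154206696-154220637, minus strand) had 1 site with 31.5% in polysome RNA and 31.8% in total RNA. NSDHL (chrX:152830967-152869729, plus strand), a dehydrogenase of cholesterol synthesis, had 1 site with 28.0% in polysome RNA and 29.1% in total RNA. MED12L, a paralog of the Mediator subunit MED12, had 26.2% and 26.0% at its site in polysome and total RNA. DCAF17, a substrate receptor of CUL4 ubiquitin ligases, had 24.3% in polysome RNA and 25.0% in total RNA. ANKRD36 had 14.7% and 14.1% over 2 sites in polysome and total RNA. Polysome and total RNA thus gave nearly the same share for each of these genes apart from XRCC5, whose share was lower in polysome RNA. The difference in XRCC5 did not pass by the adjusted p in the authors' deposited table. It is therefore given as a description only.

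In all, 7 members (5.11%) exceeded 10% editing per site in either fraction, as did 4.20% of all genes of YTHDF2-ADAR. The seventh was NPDC1, a neural differentiation gene, with 30.7% in total RNA and no polysome value; it was named after its value was seen. By the rule that chose the members, neither the YTHDF1-ADAR nor the YTHDF3-ADAR table lists these 7 genes. Site positions are not given. Whether any of these sites is a genomic variant of the line or a natural edit was therefore not tested. Their RNA was measured in the other lines too. C1orf43 had 199, 175 and 178 CPM in the total RNA of YTHDF2-ADAR cells, against 188, 179 and 172 CPM in YTHDF1-ADAR cells and 189, 261 and 258 CPM in YTHDF3-ADAR cells. XRCC5 had 291, 331 and 312 CPM in YTHDF2-ADAR cells, against 297, 277 and 304 CPM in YTHDF1-ADAR cells and 300.2, 252 and 273 CPM in YTHDF3-ADAR cells. Its libraries overlapped between the lines. NSDHL had 48.7, 44.5 and 44.9 CPM in YTHDF2-ADAR cells, against 44.8, 41.1 and 43.3 CPM in YTHDF1-ADAR cells and 39.6, 29.2 and 28.2 CPM in YTHDF3-ADAR cells, where every library was lower.

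The remaining genes named for their number of sites or their score had less than 10% editing per site. GREB1L, a kidney and inner ear development gene, had the most sites, 4, and was listed at 1.57% per site in polysome RNA and at 0 in total RNA. INTS6, a subunit of the Integrator complex that processes nascent RNA, had 1.62% in polysome RNA and 2.14% in total RNA over 3 sites. PIGX, a subunit of the first mannosyltransferase of GPI anchor synthesis, had 1.88% and 3.53% over 3 sites in polysome and total RNA. ZNF410, a zinc finger activator of CHD4, had 0.622% and 0.698% over 3 sites. DCLK2, a microtubule-associated kinase of the doublecortin family, was listed at 7.98% per site over 2 sites in polysome RNA and at 0 in total RNA. A listed 0 can be a failed estimate, and no fold is given against it.

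Editing was more often lower in polysome RNA than in total RNA. Both fractions had a value above 0 for 108 members, of which 77 (71.3%) had the lower value in polysome RNA and 31 the higher. Of the 4276 such genes of YTHDF2-ADAR in all, 60.2% were lower in polysome RNA, and among the genes listed for all 3 constructs 59.7% were. The median of the authors' deposited change, a natural log of the odds ratio, was -0.32 over these 108 members and -0.12 over these 4276 genes. For 13 members total RNA was listed at 0 and for 6 polysome RNA was, while 7 had no total value and 3 no polysome value.

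By the adjusted p in the authors' deposited table, a single member passed 0.05: MCRIP2, named as a MAPK-regulated protein that interacts with a corepressor. Its site had 0.402% editing in polysome RNA and 1.96% in total RNA, a natural log odds ratio of -1.60 with an adjusted p of 0.0417 in the authors' deposited table. Of all genes of YTHDF2-ADAR, 63 of 4547 or 1.39% passed, so 1 in 137 is near the background. The next by that p, named after their values were seen, were LTV1, a ribosome assembly factor, with 0.064, and BABAM1, a subunit of the BRCA1-A complex, with 0.094. PTPRU, a receptor tyrosine phosphatase, had 0.0931% in polysome RNA and 1.58% in total RNA, and its adjusted p in the authors' deposited table was 0.602. MCM10, a replication initiation factor, had 0.0762% in polysome RNA and 1.06% in total RNA, with an adjusted p of 0.47 in that table.

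**Figure D2:**
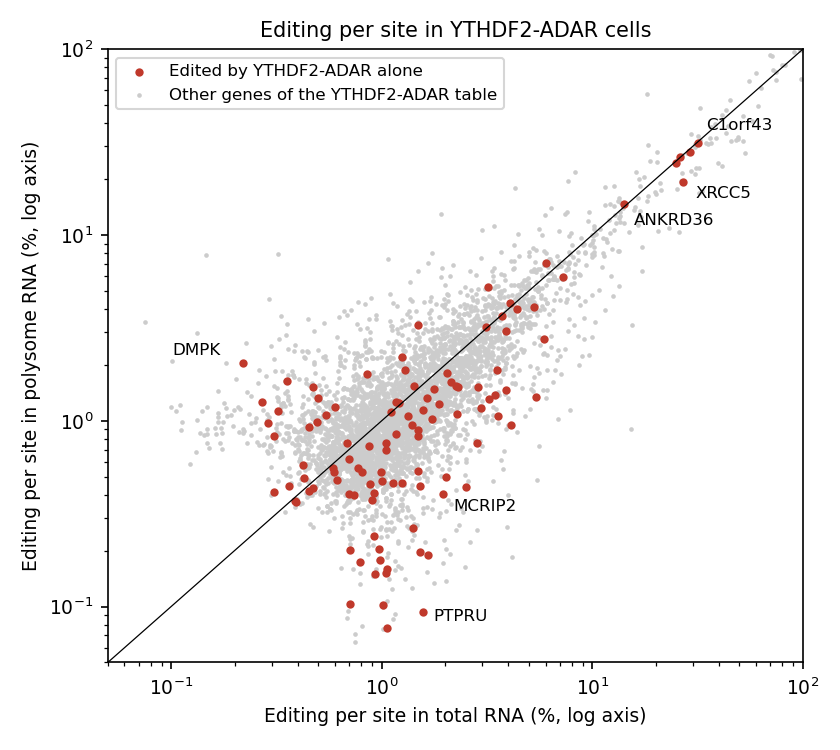
Editing per site in total RNA (horizontal axis, percent, log scale) and in polysome RNA (vertical axis, percent, log scale) for the 108 members above 0 in both fractions (red) and the other genes of the YTHDF2-ADAR table (grey); the line marks equal values. Of the red points with the strongest editing, C1orf43 and ANKRD36 lie close to the line and XRCC5 lies below it. In all, 77 of the 108 lie below the line.

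Some entries belong to genes with few counted reads. AMBP, a plasma protein precursor, had 1, 1 and 5 counts in the 3 total RNA libraries of YTHDF2-ADAR cells, so that 1 read of all 7 would be 14.3%, yet its site was listed at 2.05% editing. The listed share was thus smaller than 1 of all reads counted for the gene, as it also was for ITGAL and AGER. Such a share cannot be a fraction of the counted reads alone, and which reads gave it is not known. In all, 4 of 98 members with 1 site and a total RNA value above 0 (4.08%) had this property, and 3.03% of such genes in the whole YTHDF2-ADAR table did. In polysome RNA it held for 5 of 106 members (4.72%, against 3.14% in the table), ITGB4 among them. AMBP, ITGAL, AGER and ITGB4 were named after their values were seen, and AMBP did not pass the count filter of the tests below.

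Near-identical copies were present among the members. For 7 of them a copy was listed for another construct: EIF3CL, SPDYE2, NPIPB3, ANKRD36, ANKRD36B, CBWD3 and CBWD5. EIF3CL, a copy of the gene for translation initiation factor subunit EIF3C, had 1 site with 6.86% editing in total RNA and was listed at 0 in polysome RNA. EIF3C itself was listed for all 3 constructs, with 5 sites for YTHDF2-ADAR, 7 for YTHDF1-ADAR and 8 for YTHDF3-ADAR. SPDYE2 had 1 site for YTHDF2-ADAR, and its copy SPDYE2B had 2 sites for YTHDF2-ADAR, 1 for YTHDF1-ADAR and 2 for YTHDF3-ADAR. Levels and editing of these 7 genes are uncertain, because the sources used here do not say how reads that fit several copies were counted. A further 3 members were read-through symbols that span a pair of genes: ARHGAP19-SLIT1, STIMATE-MUSTN1 and TBCEL-TECTA. These groupings were made after the values were seen.

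Neighbours that overlap on the genome also bear on the rule. The span of 37 of the 137 genes (27.0%) overlapped the span of a gene listed for YTHDF1-ADAR or YTHDF3-ADAR, in 31 cases one on the opposite strand. Among genes listed for all 3 constructs 28.5% overlapped such a gene, and 13.2% and 20.0% did among those of YTHDF1-ADAR alone and YTHDF3-ADAR alone. C1orf43 overlapped UBAP2L, listed for the other 2 constructs, by 459 bases, and DCAF17 overlapped METTL8, listed for all 3 constructs, by 586 bases. PIGX overlapped CEP19 by 5974 bases and PAQR3 overlapped BMP2K by 29246 bases. The kit keeps the strand, per the labels' protocols, but the sources used here do not say whether counting used it, so levels of overlapping genes are uncertain too.

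All 137 genes were protein coding, and 109 (79.6%) were in none of the 12 lists of gene families and pathways, which were matched by symbol, as were 76.8% of the YTHDF2-ADAR table. Translation held 6 members (4.38%; 1.23% of the YTHDF2-ADAR table), namely the ribosomal proteins RPL13, RPL35, RPL36A and RPS18, the EIF3CL copy, and EIF2AK3, the PERK kinase that lowers translation in endoplasmic reticulum stress. Cell cycle and DNA repair held 6 (4.38%; 2.22% of the table), namely XRCC5, MCM10, CDCA8 of the chromosomal passenger complex, and the centrosome genes CEP43, CEP44 and CEP55. Zinc finger factors held 5 (3.65%; 1.98% of the table), namely ZNF410, ZKSCAN3, ZNF391, ZNF675 and ZNF749. Mitochondrial proteins held 2 (1.46%; 1.89% of the table), the ribosomal MRPL52 and the complex I subunit NDUFA10. RNA processing held INTS6 and the exosome subunit EXOSC5 (1.46%; 3.01% of the table), and ubiquitin ligases held KLHL12, an adaptor of CUL3, and TRIM35 (1.46%; 3.19% of the table). SLC51A, a bile acid transporter subunit, TMEM101, STXBP5, which binds syntaxin in vesicle fusion, SETD9 and PTPRU were the single members of a list each (0.73%; 1.63%, 1.06%, 3.12%, 1.43% and 2.75% of the table in the same order), and long noncoding RNAs had none.

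RNA levels of the members had a lower median than those of genes listed for all 3 constructs, with overlapping quartiles. Over library totals without TMM scaling, the median in total RNA of YTHDF2-ADAR cells was 27.6 CPM over the members (quartiles 14.5 and 55.2). Over genes listed for all 3 constructs it was 37.4 CPM (quartiles 19.4 and 70.1). Per kilobase of exon, the medians were 5.35 CPM and 6.30 CPM in the same order. The median exon length was 4611 and 5820 bases in that order too. The difference in level was not tested. With TMM scaling, the median level of the members in total RNA was 32.2 CPM in YTHDF2-ADAR cells, 31.6 CPM in YTHDF1-ADAR cells and 29.8 CPM in YTHDF3-ADAR cells. In YTHDF2-ADAR cells 5 members lay below 1 CPM. The count filter left 135 members among 26804 genes, and edgeR's quasi-likelihood test with Benjamini-Hochberg adjustment over all of them gives the calls that follow, at an adjusted p under 0.05. Levels come from the libraries in which the sites were listed, and a gene with more reads gives more chances to list a site, so they are not independent of the rule. In bulk RNA, fewer cells of a kind and less RNA per cell cannot be told apart.

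Between YTHDF2-ADAR and YTHDF1-ADAR cells almost no member changed. In total RNA 1 of the 135 was higher in YTHDF2-ADAR cells (0.545% of all genes tested) and 1 was lower (1.28% of all genes). In polysome RNA likewise 1 was higher (0.761% of all genes) and 1 was lower (1.59% of all genes). Both shares are near the background. The median log2 fold change of the members was 0.06 in total RNA and 0.06 in polysome RNA, where that of all genes was 0.00 in both, and 134 of 135 members lay within 2-fold in total RNA. Fitted over the compared groups alone, 3 members were higher and 2 lower in total RNA (1.09% and 2.47% of all genes), and 7 higher and 3 lower in polysome RNA (3.64% and 6.06%). Without the 4 replicate 1 libraries 3 were higher and 2 lower in total RNA (1.54% and 2.84% of all genes), and 6 higher and 2 lower in polysome RNA (3.7% and 5.99%).

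The gene that was higher was DPYSL3 (ENSG00000113657, chr5:147390808-147510068, minus strand), which encodes CRMP4, a cytoskeletal protein of growing axons. In total RNA it had 17.4, 14.8 and 14.5 CPM in YTHDF2-ADAR cells, against 5.41, 4.24 and 3.88 CPM in YTHDF1-ADAR cells and 10.01, 8.44 and 7.56 CPM in YTHDF3-ADAR cells. In polysome RNA it had 15.04, 15.7 and 15.6 CPM in YTHDF2-ADAR cells, against 5.34, 5.02 and 4.33 CPM in YTHDF1-ADAR cells and 10.6, 7.64 and 7.16 CPM in YTHDF3-ADAR cells. Every YTHDF2-ADAR library lay above every library of the other lines in both fractions. The log2 fold change in total RNA was 1.79 ± 0.17 (SE, edgeR adjusted p = 1.37e-05) over YTHDF1-ADAR and 0.84 ± 0.16 (SE, edgeR adjusted p = 0.00243) over YTHDF3-ADAR. In polysome RNA it was 1.66 ± 0.17 (SE, edgeR adjusted p = 2.78e-05) over YTHDF1-ADAR and 0.87 ± 0.16 (SE, edgeR adjusted p = 0.00198) over YTHDF3-ADAR. Each of the 4 calls held under all 12 alternatives tried, which change the scaling, filter, model or tool or leave out a library. Its site had 1.46% editing in polysome RNA and 3.88% in total RNA.

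The gene that was lower was SNRNP48 (ENSG00000168566, chr6:7590198-7611967, plus strand), a protein of the U11/U12 particle of the minor spliceosome. In total RNA it had 57.9, 61.6 and 55.02 CPM in YTHDF2-ADAR cells, against 74.8, 72.9 and 73.6 CPM in YTHDF1-ADAR cells and 93.97, 98.5 and 92.3 CPM in YTHDF3-ADAR cells. In polysome RNA it had 72.2, 67.5 and 73.3 CPM in YTHDF2-ADAR cells, against 93.97, 98.9 and 91.9 CPM in YTHDF1-ADAR cells and 114, 137 and 136 CPM in YTHDF3-ADAR cells. The YTHDF2-ADAR libraries lay below all others within each fraction. The log2 fold change in total RNA was -0.34 ± 0.08 (SE, edgeR adjusted p = 0.0485) over YTHDF1-ADAR and -0.71 ± 0.08 (SE, edgeR adjusted p = 6.53e-05) over YTHDF3-ADAR, and in polysome RNA -0.42 ± 0.08 (SE, edgeR adjusted p = 0.0102) over YTHDF1-ADAR and -0.86 ± 0.08 (SE, edgeR adjusted p = 7.59e-06) over YTHDF3-ADAR. Of these, the call in total RNA over YTHDF1-ADAR was made under 2 of 12 alternatives and was lost without any 1 of the 6 libraries compared, with an edgeR adjusted p of up to 0.270, the call in polysome RNA over YTHDF1-ADAR under 9 of 12, and both calls over YTHDF3-ADAR under all 12. Its site had 0.152% editing in polysome RNA and 1.04% in total RNA.

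**Figure D3:**
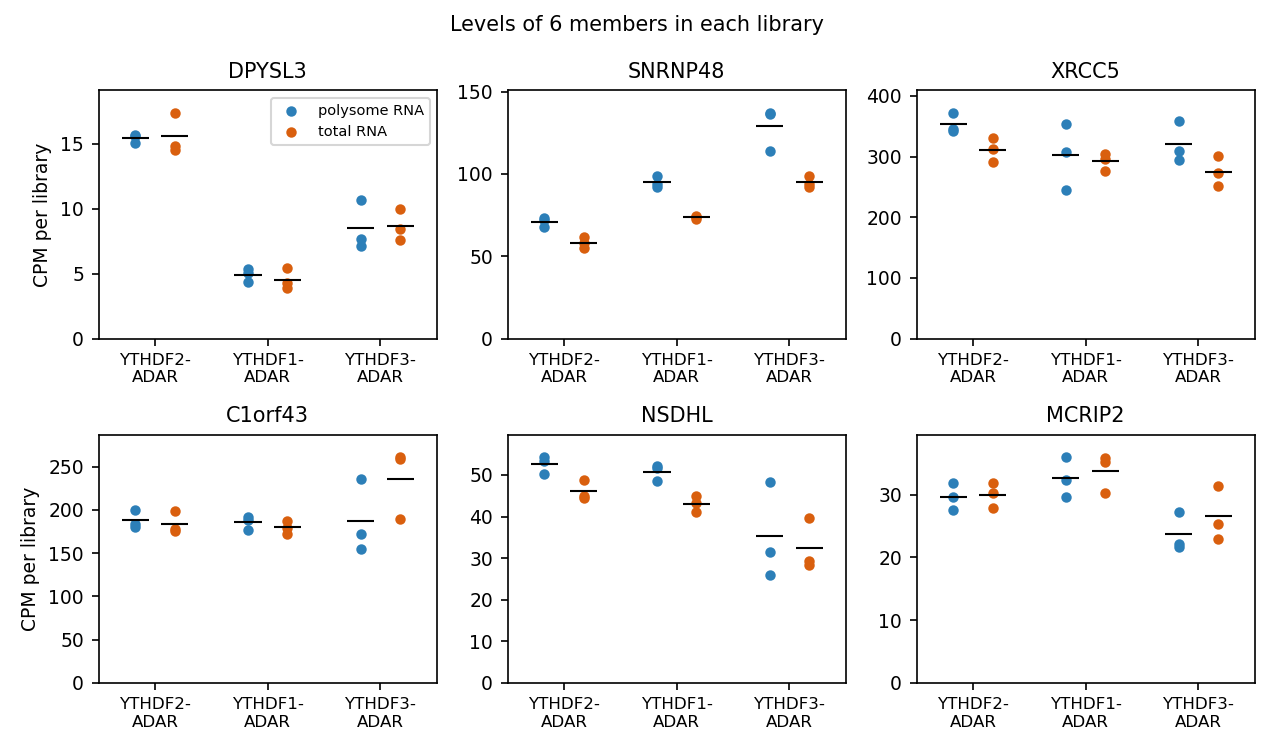
Level in CPM (vertical axes, starting at 0) of 6 members in each of the 18 libraries, by line (horizontal axes), with polysome RNA in blue left of total RNA in orange; bars are means of 3 libraries. DPYSL3 is highest and SNRNP48 lowest in YTHDF2-ADAR cells, while the libraries of XRCC5 overlap between lines.

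Against YTHDF3-ADAR cells many more members differed. In total RNA 32 of 135 (23.7%) were higher in YTHDF2-ADAR cells, where 7.57% of all genes were, and 18 (13.3%) were lower, where 15.2% of all genes were. In polysome RNA 31 (23%) were higher, with 11.5% of all genes, and 15 (11.1%) were lower, with 13.6% of all genes. Among genes listed for all 3 constructs 9.31% were higher and 16.4% lower in total RNA, and 13.7% and 12.6% in polysome RNA. Genes of YTHDF1-ADAR alone had 12.2% higher and 14.5% lower in total RNA, and 20.6% and 9.64% in polysome RNA, the last pair close to the members. The median log2 fold change of the members was 0.11 in total RNA and 0.14 in polysome RNA, and that of all genes was -0.02 and 0.02. Calls in both fractions were made for 19 members higher (14.1%; 4.97% of all genes) and 14 lower (10.4%; 10.7% of all genes), with none in opposite directions. Without both YTHDF3-ADAR replicate 1 libraries these were 40 and 25 (15.8% and 20.9% of all genes), among them the same 19 and 14, and fitted over the compared groups alone 3 and 6.

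These counts depend on the scaling, the model and single libraries. Fitted over the compared groups alone, 5 members were higher and 8 lower in total RNA (1.12% and 3.82% of all genes), which turned the balance, and 10 higher and 9 lower in polysome RNA (2.57% and 7.64%). Without normalization factors, 5 members were higher and 37 lower in total RNA (2.08% and 24.6% of all genes), and 14 higher and 23 lower in polysome RNA (4.97% and 17.7%), while the median of all genes moved to -0.20 and -0.11. Without the total RNA replicate 1 of YTHDF3-ADAR, 48 members were higher and 30 lower in total RNA (19.7% and 22.4% of all genes). Without its polysome replicate 1, 48 were higher and 24 lower in polysome RNA (20.9% and 21.5%). Without the 4 replicate 1 libraries, 63 were higher and 28 lower in total RNA (29% and 24.2% of all genes), and 53 and 33 in polysome RNA (24.5% and 27.7%).

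Leaving out other libraries lowered the counts of members and of all genes alike. Without replicate 2 or replicate 3 of YTHDF3-ADAR total RNA 9 and 12 members were higher (2.53% and 2.36% of all genes) and 11 and 12 lower (7.07% and 7.33%). Without replicate 2 or replicate 3 of YTHDF2-ADAR total RNA 10 and 16 were higher (3.54% and 3.87%) and 12 and 12 lower (7.9% and 9%). In polysome RNA, without YTHDF3-ADAR replicate 2 or replicate 3, 18 and 17 were higher (4.38% and 6.95%) and 8 and 10 lower (6.19% and 7.61%). Without YTHDF2-ADAR polysome replicates 1, 2 and 3, 23, 23 and 19 were higher (6.07%, 6.78% and 7.23%) and 9, 7 and 7 lower (8.2%, 7.53% and 8.43%).

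Some members called in this comparison, named after their values were seen unless by list, were of unlike function. They are not all at its ends. In total RNA ANKRD36 rose more than ZNF749, with a log2 fold change of 1.00. APEH and COL2A1, also named after their values were seen, fell more than KLHL12, with -1.07 and -0.98. GAL, the neuropeptide galanin, had 83.5, 70.2 and 76.9 CPM in total RNA of YTHDF2-ADAR cells and 49.1, 31.8 and 30.7 CPM in YTHDF3-ADAR cells, a log2 fold change of 1.05 ± 0.20 (SE, edgeR adjusted p = 0.00272). ZNF749 had 25.5, 26.7 and 23.1 CPM in YTHDF2-ADAR cells and 16.96, 11.5 and 10.9 CPM in YTHDF3-ADAR cells, with 0.94 ± 0.18 (SE, edgeR adjusted p = 0.00265) on the log2 scale. For both genes all YTHDF2-ADAR libraries lay above all YTHDF3-ADAR libraries, and the calls in both fractions held under all 12 alternatives. TMEM101, a membrane protein, was lower, with 21.2, 19.1 and 19.6 CPM in YTHDF2-ADAR cells and 28.3, 59.4 and 60.9 CPM in YTHDF3-ADAR cells, a log2 fold change of -1.31 ± 0.20 (SE, edgeR adjusted p = 0.000481). KLHL12 had 41.7, 40.6 and 36.1 CPM in YTHDF2-ADAR cells and 50.3, 74.1 and 74.02 CPM in YTHDF3-ADAR cells, with -0.75 ± 0.13 (SE, edgeR adjusted p = 0.00112). The calls for TMEM101 and KLHL12 held under all 12 alternatives in both fractions. EMID1, an extracellular matrix protein, had 4.40, 3.38 and 4.01 CPM in YTHDF2-ADAR cells and 4.41, 16.9 and 16.4 CPM in YTHDF3-ADAR cells. Its first YTHDF3-ADAR library was close to the YTHDF2-ADAR values and the other two were far above them, and its call (-1.68 ± 0.43 (SE, edgeR adjusted p = 0.0118)) was made under 8 of 12 alternatives.

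Among the strongly edited members, NSDHL was higher in YTHDF2-ADAR than in YTHDF3-ADAR cells in total RNA, by 0.51 ± 0.17 (SE, edgeR adjusted p = 0.0427) on the log2 scale, and ANKRD36 by 1.00 ± 0.30 (SE, edgeR adjusted p = 0.0265). DCAF17 was higher by 0.48 ± 0.15 (SE, edgeR adjusted p = 0.0287). These calls were made under 5, 4 and 5 of 12 alternatives. NPDC1 was lower in YTHDF2-ADAR cells, with a log2 fold change of -0.56 ± 0.11 (SE, edgeR adjusted p = 0.00315), under all 12 alternatives. C1orf43 did not pass, with a log2 fold change of -0.36 ± 0.14 (SE, edgeR adjusted p = 0.0764). XRCC5 and MED12L did not pass either, with log2 fold changes of 0.18 ± 0.12 (SE, edgeR adjusted p = 0.297) and -0.04 ± 0.17 (SE, edgeR adjusted p = 0.867) in total RNA. Strongly edited members were therefore called above the YTHDF3-ADAR line, below it or not at all.

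**Figure D4:**
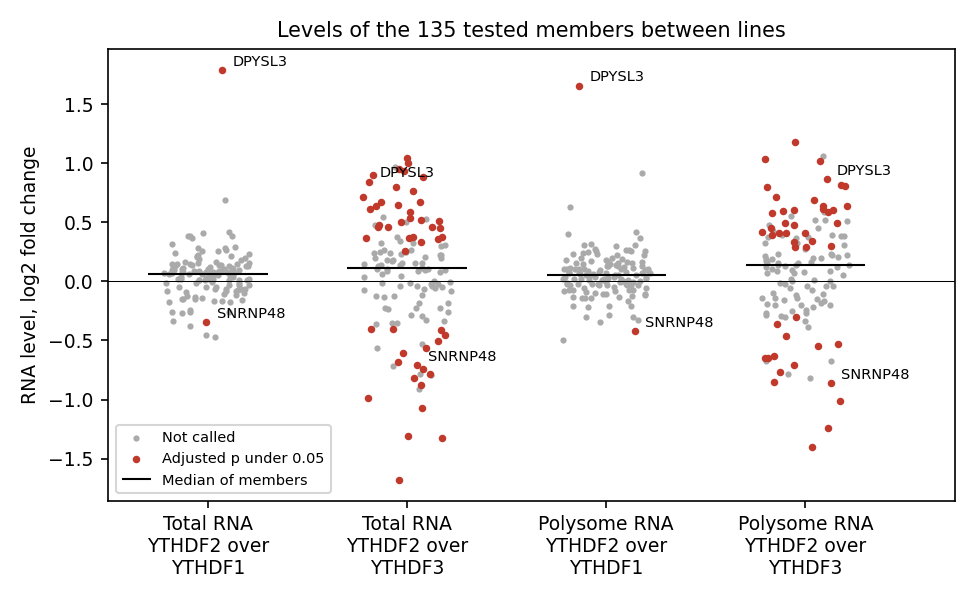
Log2 fold change of the RNA level (vertical axis) of the 135 tested members in 4 comparisons between lines (horizontal axis), with members at an edgeR adjusted p under 0.05 in red, the others in grey and the median as a bar; points are spread sideways for sight only. In both YTHDF1 comparisons DPYSL3 and SNRNP48 are the called genes, and the YTHDF3 comparisons hold 50 and 46 called genes.

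Association with polysomes was compared as polysome RNA over total RNA within each line, which reads the share of a transcript in fractions with several ribosomes relative to other transcripts. In YTHDF2-ADAR cells 21 of 135 members (15.6%) were higher in polysome RNA, where 6.71% of all genes were, and 6 (4.44%) were lower, where 9.04% were. Protein-coding genes as a whole had 10.2% higher and 4.85% lower, and genes listed for all 3 constructs 12.4% and 5.17%. In YTHDF1-ADAR cells 26 were higher (9.26% of all genes) and 11 lower (11.9%), and in YTHDF3-ADAR cells 25 were higher (8.01%) and 13 lower (12.1%). The median log2 fold change of the members was 0.14 in YTHDF2-ADAR, 0.13 in YTHDF1-ADAR and 0.08 in YTHDF3-ADAR cells, close to the 0.13, 0.13 and 0.05 of protein-coding genes.

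Fitted over the compared groups alone, no member was called in YTHDF3-ADAR cells (0% of all genes higher and 0.776% lower), while 36 were higher and 17 lower in YTHDF2-ADAR cells (15.1% and 16%) and 29 and 14 in YTHDF1-ADAR cells (12.5% and 16.9%). Without both YTHDF3-ADAR replicate 1 libraries the pooled fit gave 45 higher and 10 lower in YTHDF2-ADAR cells (18.2% and 14.6% of all genes), 53 and 13 in YTHDF1-ADAR cells (22.7% and 17%) and 50 and 22 in YTHDF3-ADAR cells (16.6% and 13.8%).

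With the replicate number as a block within each line, 34 members were higher and 13 lower in YTHDF2-ADAR cells, with 15.5% and 15.0% of all genes. The block gave 44 higher and 16 lower in YTHDF1-ADAR cells (18.7% and 18% of all genes) and 40 higher and 27 lower in YTHDF3-ADAR cells (13.6% and 20.1%). Without normalization factors 82, 94 and 57 members were higher in the 3 lines in that order (33.9%, 40.6% and 25.3% of all genes) and 3 were lower in each (5.09%, 5.7% and 6.22%), while the median of all genes moved to 0.40, 0.46 and 0.25. In YTHDF2-ADAR cells, leaving out total RNA replicates 1, 2 and 3 in turn left 14, 10 and 6 members higher (5.19%, 3.09% and 2.5% of all genes), leaving out polysome replicates 1, 2 and 3 left 9, 13 and 5 (3.23%, 4.52% and 3.01%), and 6 were lower each time (5.61% to 7.01% of all genes). In YTHDF1-ADAR cells, leaving out total RNA replicates 1, 2 and 3 left 14, 18 and 20 higher (5.32%, 5.16% and 6.97% of all genes) and 7 lower each time (8.08%, 9.06% and 9.65%), and leaving out polysome replicates 1, 2 and 3 left 17, 15 and 15 higher (6%, 4.44% and 5.27%) and 5, 6 and 8 lower (8.39%, 7.8% and 8.72%). In YTHDF3-ADAR cells 47 were higher and 15 lower without total RNA replicate 1 (14.6% and 11.7% of all genes), and 30 higher and 24 lower without polysome replicate 1 (10.2% and 15.2%). Without total RNA replicate 2 or 3 the numbers were 18 and 15 higher (3.82% and 5.09%) and 6 and 9 lower (8.6% and 9.86%), and without polysome replicate 2 they were 13 higher and 7 lower (3.33% and 7.27%).

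The same direction was called in all 3 lines for 19 members, 14 higher (10.4%; 3.7% of all genes) and 5 lower (3.7%; 6.56% of all genes) in polysome RNA. All genes here include noncoding genes, whereas all members were protein coding. The share of protein-coding genes called in all 3 lines is not given here. When both YTHDF3-ADAR replicate 1 libraries were left out, 31 were higher and 6 lower (8.79% and 8.11% of all genes), among them 13 of the 14 and 3 of the 5, and without all 4 replicate 1 libraries 18 and 6 (6.22% and 8.06%). With the compared groups fitted alone none was called in all 3 lines. Of those that were higher, RWDD4 had 26.00, 23.9 and 27.1 CPM in polysome RNA and 17.97, 17.9 and 18.8 CPM in total RNA of YTHDF2-ADAR cells, a log2 fold change of 0.50 ± 0.11 (SE, edgeR adjusted p = 0.00784). PAQR3, a Golgi protein that binds RAF kinase, had 71.1, 74.2 and 79.4 CPM in polysome RNA and 46.8, 55.7 and 53.98 CPM in total RNA, with 0.52 ± 0.13 (SE, edgeR adjusted p = 0.0114). The polysome libraries of both genes lay above their total RNA libraries. RFK, the riboflavin kinase, had 0.54 ± 0.16 (SE, edgeR adjusted p = 0.0310), and SPDYA, an activator of cyclin-dependent kinases, 0.44 ± 0.13 (SE, edgeR adjusted p = 0.0318). DIMT1, which methylates the small ribosomal RNA, had 0.38 ± 0.11 (SE, edgeR adjusted p = 0.0301), and TATDN3, a putative nuclease, 0.51 ± 0.13 (SE, edgeR adjusted p = 0.0171). In YTHDF2-ADAR cells the calls for SPDYA and DIMT1 were made under 6 of 12 alternatives each, for RFK under 7, and for RWDD4 under all 12.

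Of the 5 that were lower, SPDYE2, a member of the same Speedy family as SPDYA and one of the copied genes, fell the most. It had 16.2, 24.9 and 18.4 CPM in polysome RNA and 46.4, 50.3 and 48.98 CPM in total RNA of YTHDF2-ADAR cells, a log2 fold change of -1.29 ± 0.17 (SE, edgeR adjusted p = 0.000118). DMPK, the kinase of the myotonic dystrophy locus, had 14.1, 16.9 and 14.8 CPM in polysome RNA and 28.7, 28.6 and 29.6 CPM in total RNA, with -0.92 ± 0.13 (SE, edgeR adjusted p = 0.000177). In both genes no polysome library reached a total RNA library. NPIPB3, another copied gene, changed by -0.78 ± 0.16 (SE, edgeR adjusted p = 0.00428), LAT2, an adaptor of immune receptor signalling, by -0.88 ± 0.20 (SE, edgeR adjusted p = 0.00654), and CCDC65, a protein of motile cilia, by -0.78 ± 0.18 (SE, edgeR adjusted p = 0.00891). Editing did not follow these changes in 1 direction: DMPK had 2.05% editing in polysome RNA and 0.22% in total RNA, while SPDYE2 had 1.18% in polysome RNA and 2.96% in total RNA.

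**Figure D5:**
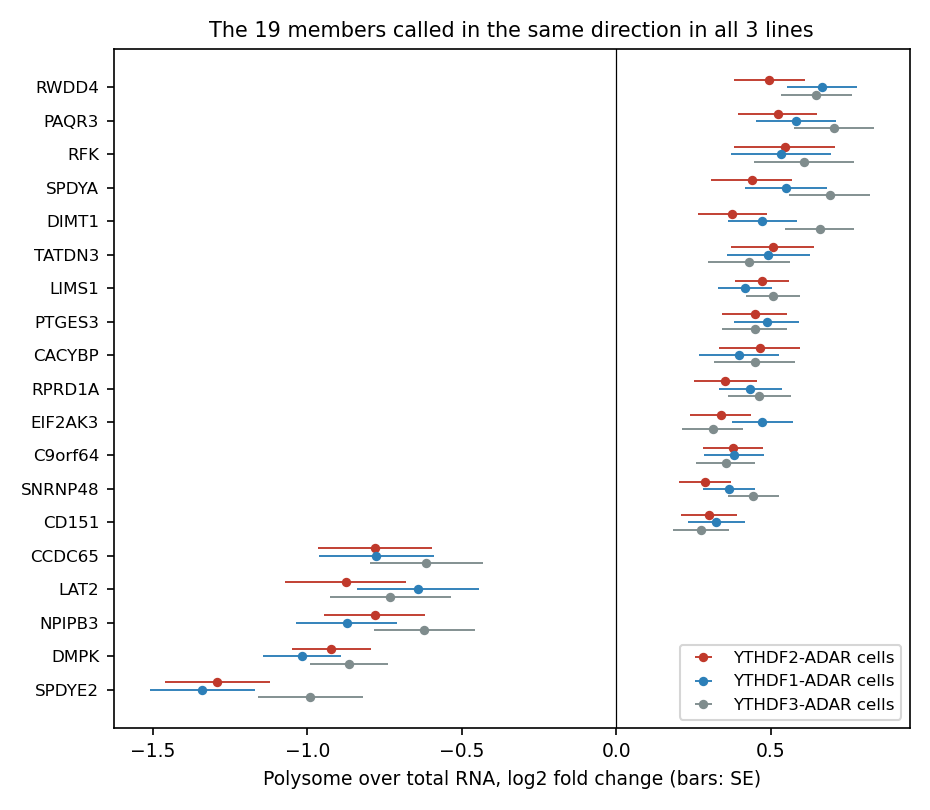
Log2 fold change of polysome over total RNA (horizontal axis, bars are standard errors) in the 3 lines for the 19 members called in the same direction in each (vertical axis). The 14 genes higher in polysome RNA lie within 1 log2 unit of 0, and SPDYE2 lies furthest to the left in all 3 lines.

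The lists of roles showed few shared changes. Of the 6 translation genes, EIF2AK3 was higher in polysome RNA in each of the 3 lines. RPS18, RPL13 and RPL36A, of the small and large ribosomal subunits, were lower in polysome RNA in YTHDF3-ADAR cells. Their log2 fold changes there were -1.10 ± 0.19 (SE, edgeR adjusted p = 0.000920), -0.69 ± 0.19 (SE, edgeR adjusted p = 0.0189) and -0.65 ± 0.14 (SE, edgeR adjusted p = 0.00428). RPS18 had 651, 584 and 605 CPM in polysome RNA and 714, 629 and 659 CPM in total RNA of YTHDF2-ADAR cells, and 379, 193 and 335 CPM in polysome RNA and 515, 728 and 699 CPM in total RNA of YTHDF3-ADAR cells. In polysome RNA 4 of the 6 translation genes were higher in YTHDF2-ADAR than in YTHDF3-ADAR cells, RPS18 by 1.02 ± 0.19 (SE, edgeR adjusted p = 0.00188), RPL35 by 0.80 ± 0.15 (SE, edgeR adjusted p = 0.00235), RPL36A by 0.68 ± 0.14 (SE, edgeR adjusted p = 0.00338) and EIF2AK3 by 0.29 ± 0.10 (SE, edgeR adjusted p = 0.0425), where 11.5% of all genes were, and none of the 6 was called in total RNA. The calls for RPS18 and RPL36A were made under all 12 alternatives, for RPL35 under 11 and for EIF2AK3 under 3. Lower levels of RPL13, RPL36A and RPS18 in YTHDF3-ADAR polysome RNA were called under 7, 10 and 11 of 12. With both YTHDF3-ADAR replicate 1 libraries left out, 5 of the 6 were higher in YTHDF2-ADAR polysome RNA (23.6% of all genes). In total RNA 1 of the 6, EIF2AK3, was then higher and 2 were lower (24.5% and 26.4% of all genes). Without all 4 replicate 1 libraries 1 was higher and 1 lower in total RNA (29% and 24.2%). RPL35 and RPL36A are named here beside the rule, after their values were seen. Of the 6 cell cycle and repair genes, CEP43 was higher in YTHDF2-ADAR than in YTHDF3-ADAR cells in both fractions. In polysome RNA over total RNA 2 of the 6 were higher in YTHDF1-ADAR cells and 2 in YTHDF3-ADAR cells. The shares of all genes there were 9.26% and 8.01%, and those of protein-coding genes 13.8% and 12.4%. XRCC5, MCM10 and CDCA8 passed in no comparison. Of the 5 zinc finger genes, 2 were higher and 1 lower in YTHDF2-ADAR than in YTHDF3-ADAR polysome RNA (11.5% and 13.6% of all genes). In total RNA 1 was higher (7.57% of all genes). Within YTHDF2-ADAR cells, ZNF410 was higher in polysome RNA than in total RNA, with 0.36 ± 0.07 (SE, edgeR adjusted p = 0.00368). MRPL52 and EXOSC5 also rose there, by 0.34 ± 0.09 (SE, edgeR adjusted p = 0.0143) and 0.50 ± 0.15 (SE, edgeR adjusted p = 0.0314), while NDUFA10, TRIM35, STXBP5, SETD9 and PTPRU passed in no comparison.

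Whether the polysome association of the members differed between lines was tested as the difference of the 2 log2 fold changes. No member passed, against YTHDF1-ADAR or against YTHDF3-ADAR, in edgeR or in DESeq2, and 0% of all genes passed in edgeR in either comparison. At an unadjusted p under 0.05 in edgeR there were 1 of 135 members (166 of 26804 genes) against YTHDF1-ADAR and 7 of 135 (801 genes) against YTHDF3-ADAR. Without the polysome replicate 1 of YTHDF3-ADAR a single member passed against YTHDF3-ADAR, with the higher change in YTHDF2-ADAR cells (0.0522% of all genes). Without both YTHDF3-ADAR replicate 1 libraries 4 members had the higher change in YTHDF2-ADAR cells and 1 the lower (0.608% and 0.459% of all genes), and without all 4 replicate 1 libraries 6 and 20 did (1.24% and 6.85%). Against YTHDF1-ADAR none passed without them. The largest differences from YTHDF3-ADAR among the ribosomal proteins were those of RPS18, 0.98 ± 0.26 (SE, edgeR adjusted p = 1.00), and RPL13, 0.84 ± 0.27 (SE, edgeR adjusted p = 1.00), on the log2 scale. Without the 4 libraries the difference was 1.25 ± 0.24 (SE, edgeR adjusted p = 0.00614) for RPS18, 1.23 ± 0.19 (SE, edgeR adjusted p = 0.00146) for RPL13, 0.91 ± 0.15 (SE, edgeR adjusted p = 0.00209) for RPL35 and 0.75 ± 0.19 (SE, edgeR adjusted p = 0.0229) for RPL36A. All 4 ribosomal protein genes then passed, whereas none did with all libraries. Without only the YTHDF3-ADAR replicate 1 libraries RPL36A did not pass, with 0.77 ± 0.18 (SE, edgeR adjusted p = 0.0563). Most members that passed without the 4 libraries went the other way, 20 against 6. Among those 20 were ANKRD36, with -1.32 ± 0.25 (SE, edgeR adjusted p = 0.00761), and DCAF17, with -0.74 ± 0.15 (SE, edgeR adjusted p = 0.00566). With all libraries the median difference was 0.00 against YTHDF1-ADAR and 0.06 against YTHDF3-ADAR, where all genes also had 0.00 and 0.06.

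The levels of few members set YTHDF2-ADAR apart from both other lines. In total RNA all 3 YTHDF2-ADAR libraries lay above all libraries of both other lines for 8 of the 137 members (5.84%; 3.27% of all genes tested) and below them for 5 (3.65%; 5.31%). In polysome RNA they lay above for 11 (8.03%; 4.53%) and below for 3 (2.19%; 5.54%). Without the replicate 1 of YTHDF3-ADAR these were 10 and 5 in total RNA (4.33% and 7.53% of all genes), and 15 and 5 in polysome RNA (6.74% and 8.41%). Without replicate 1 of all 3 lines they were 30 and 15 in total RNA (12.6% and 14.2% of all genes). Among them DPYSL3 was called higher against both lines (0.25% of all genes in total RNA and 0.358% in polysome RNA) and SNRNP48 lower (0.69% and 0.754%), and no other member was. Without both YTHDF3-ADAR replicate 1 libraries 4 members were called higher and 1 lower in each fraction (0.996% and 2.73% of all genes in total RNA, 1.37% and 3.32% in polysome RNA). With all libraries, the other 133 of the 135 tested members had no called difference of the level from both other lines in the same fraction. Such calls were rare among all genes too, by the shares above, so this is near the background. A missing call does not show equal levels.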

How the data were processed

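RNA of HEK293T cells was measured in 18 libraries, 3 in each of 6 groups. Per the submitters' processing notes, STAR 2.7.7, featureCounts 2.0.1 and DESeq2 were used with GRCh38; the annotation release, strand setting and site caller are not named there or in the labels. The deposited count table holds raw counts per gene, with no normalization. Its 1 row that names no human gene, at most 1.48e-05 percent of a library, was left out. The authors' editing tables hold per gene the number of sites, an editing score for each fraction, a change, in natural log units, of the odds of score per site (largest difference 5.62e-08 from the recomputed value, whatever the header says), and an adjusted p-value from a test that is not stated. The deposited score has 1 value over the replicates and never exceeds the number of sites.

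Members were found by symbol, and all 137 symbols matched a gene ID. The members, gene lists and tests were chosen with earlier results of these data known. Counts were analysed with edgeR 4.0.16 in R 4.3.3: filterByExpr with a minimum count of 10 left 26804 of 60675 genes and 135 of 137 members. TMM factors and a robust quasi-likelihood fit of the 6 group means over all 18 libraries followed, with Benjamini-Hochberg adjustment over all genes and a threshold of 0.05. Standard errors were taken from the fold change and its F statistic (the change over the square root of F). CPM use TMM-scaled totals, except where members are set beside other edited genes, which uses library totals without that scaling. Alternatives were the size factors of DESeq2, no normalization factors, no filter, a fit of the compared groups alone, the replicate block, DESeq2 1.42.0, each library left out and, added after the data were seen, the replicate 1 libraries that stood apart left out together. The fit was tested on simulated counts. The reads carry no molecular identifiers, and all errors refer to these libraries.

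To see whether replicate numbers pair samples, deviations from the group mean were correlated between the polysome and the total RNA library of the same number. In the 9 such pairs within lines r lay between 0.20 and 0.67, above the 0.1 required, so the block within a line is given beside those results; 5 of 18 pairs of unlike number also exceeded 0.1. No duplicate libraries were found (chi-square per degree of freedom at least 6.955).

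Genes named are the 5 members with most sites, the 8 with the highest polysome score, the authors' calls, members called against both other lines, the 6 highest and 6 lowest called on polysomes in all 3 lines, up to 3 per list by mean CPM, and the genes of the labels. Others are said to be named after their values were seen. Not every gene that this rule gives is reported here.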

Additional observations from a re-analysis of the deposited data

How the results depend on the processing

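The calls between lines rest on few libraries. With 1 library left out at a time, the members higher in YTHDF2-ADAR than in YTHDF3-ADAR cells numbered 9 to 48 in total RNA and 17 to 48 in polysome RNA, and those lower 11 to 30 and 7 to 24. Against YTHDF1-ADAR the numbers were 1 higher and 0 lower in total RNA, and 1 to 2 higher and 0 to 1 lower in polysome RNA. Of all genes, 0.298% to 0.347% were then higher and 0.601% to 0.869% lower in total RNA. In polysome RNA 0.392% to 0.619% of all genes were higher and 0.813% to 1.08% lower. For polysome over total RNA they were 5 to 14 higher and 6 lower in YTHDF2-ADAR, 14 to 20 and 5 to 8 in YTHDF1-ADAR, and 13 to 47 and 6 to 24 in YTHDF3-ADAR cells. The difference of that change from YTHDF3-ADAR had 0 to 1 members higher (at most 0.0522% of all genes).

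Without normalization factors, total RNA against YTHDF3-ADAR had 5 higher and 37 lower, polysome RNA 14 and 23, polysome over total RNA 82, 94 and 57 higher and 3 lower in each line, and total RNA against YTHDF1-ADAR 0 lower (0.761% of all genes). Where no share of all genes is printed here, it stands beside the same count above. With a fit of the compared groups alone, total RNA had 3 higher and 2 lower against YTHDF1-ADAR and 5 and 8 against YTHDF3-ADAR, polysome RNA 7 and 3 and 10 and 9, and polysome over total RNA 36 and 17 in YTHDF2-ADAR and 0 and 0 in YTHDF3-ADAR cells. The cause was not tested. Without the filter, polysome over total RNA had 12 higher in YTHDF2-ADAR (1.99% of all genes) and 7 lower in YTHDF3-ADAR cells (4.68%). Against YTHDF1-ADAR that setting gave 0 lower in total RNA (0.481%) and 2 higher in polysome RNA (0.315%). DESeq2 called 2 higher in total RNA (1.15% of all genes) and 2 higher and 2 lower in polysome RNA (1.73% and 2.95%) against YTHDF1-ADAR. Its size factors gave 0 lower in total RNA (1.19%) and 2 higher in polysome RNA (0.742%) in the same comparison. The replicate block gave 0 lower in total RNA (0.817% of all genes) and 2 lower in polysome RNA (1.11%) against YTHDF1-ADAR. Against YTHDF3-ADAR it gave 23 higher and 15 lower in total RNA (6.11% and 12%) and 27 and 12 in polysome RNA (10.1% and 10.5%). For polysome over total RNA it gave 34 and 13 in YTHDF2-ADAR, 44 and 16 in YTHDF1-ADAR and 40 and 27 in YTHDF3-ADAR cells. Across lines 1 of 9 same-numbered pairs in total RNA and 3 of 9 in polysome RNA had r above 0.1, so the numbers do not pair the lines.

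Without both YTHDF3-ADAR replicate 1 libraries, an alternative added after the data were seen, the members higher and lower were 5 and 3 in total RNA (1.99% and 4.41% of all genes) and 6 and 3 in polysome RNA (3.09% and 5.66%) against YTHDF1-ADAR, 54 and 31 (24.5% and 26.4%) and 52 and 32 (23.6% and 26%) against YTHDF3-ADAR, and for polysome over total RNA 45 and 10 in YTHDF2-ADAR, 53 and 13 in YTHDF1-ADAR and 50 and 22 in YTHDF3-ADAR cells, with 4 and 1 for the difference of that change from YTHDF3-ADAR. Without all 4 replicate 1 libraries that stood apart, the same numbers of members were 3 and 2, 6 and 2, 63 and 28, 53 and 33, 31 and 13, 40 and 13, 53 and 21, and 6 and 20. For polysome over total RNA 13.1% of all genes were then higher and 15.4% lower in YTHDF2-ADAR cells. The shares were 15.9% and 16.3% in YTHDF1-ADAR, and 18.9% and 14.9% in YTHDF3-ADAR cells.

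Among 1162 values of 83 calls of 30 named genes under these alternatives, 908 kept their call, 253 lost it in the same direction and 1 changed sign: DCLK2, polysome over total RNA in YTHDF1-ADAR cells, was 0.0228 on the log2 scale without normalization factors and -0.41 with them. Matching by gene ID left 137 members. With at least 2 sites required, 23 members remained, with median editing per site of 1.2003% in polysome RNA and 1.11% in total RNA. Editing scores have no replicate values, so their precision is unknown.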
